A study of Sus scrofa with 34 samples.

Results

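The ileum and the liver of the same control-fed piglets were compared gene by gene. The comparison used 10 of the 34 libraries of the series, 1 ileum and 1 liver library from each of 5 control pigs (pigs 71, 80, 92, 100 and 110), chosen because the library titles give these pig numbers in both tissues. The study fed weaned crossbred piglets (Landrace × Large White sows, Pietrain boars) a control diet, an essential oil-based phytogenic feed additive (PFA), oxidized oil (OO) or both, and asked how PFA changes gene expression. Every sample carries the age label d28, day 28 of the trial. The 10 libraries all come from pigs fed the control diet with neither PFA nor oxidized oil. Each diet was fed in 1 pen, and each library was made from a small rinsed piece of whole tissue of 1 pig. A further control pig (85) had a liver library alone here, and 5 PFA-fed pigs (75, 95, 107, 134 and 138) had both tissues and were compared in the same way as a second set of animals.

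The ileum is the last part of the small intestine. Its absorptive cells carry digestive enzymes and transporters on their brush border, recover bile acids for return to the liver, and share the tissue with mucus and hormone cells, lymphoid follicles, smooth muscle and nerves. The liver receives the blood that leaves the intestine, and its hepatocytes secrete most plasma proteins, make bile acids, urea and glucose, and modify drugs and other foreign compounds.

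Levels are given as CPM, the usual unit of counts relative to library size, here with sizes scaled by the TMM method, with SDs over the 5 pigs (n = 5 in every group). Values of single pigs always follow the order 71, 80, 92, 100 and 110. Between 18889611 and 24338165 read pairs fell on genes in the ileum libraries and between 23109323 and 36403616 in the liver libraries. The tissue labels fitted the marker genes. The 10 hepatocyte markers summed to between 0.445 and 0.761 CPM in the ileum and to at least 134100 CPM in every liver, and TTR, F9 and AHSG had no read pair in any ileum. The 9 enterocyte markers found in the files summed to at least 17480 CPM in every ileum and to between 629 and 899.9 CPM in the liver, where SI had no read pair. Both libraries of pig 80 stood apart within their tissue. Its ileum exceeded all other ilea by over 5-fold in 43 genes at 5 CPM or more, against at most 4 in any other ileum, many of them genes of B cells. Its liver was over 5-fold below all other livers in 19 genes, against at most 2 in any other liver, several of them genes of blood vessels, and 29.9% of its read pairs fell on genes of the mitochondrial genome, against 9.05% to 11.9% in the other livers. The title of that liver library also has another form than those of the other 4 livers. Results that rest on pig 80 are given with and without it.

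A gene was called when its adjusted p was at most 0.05 and its fold change at least 2 in edgeR's quasi-likelihood test, with the pig as a block and Benjamini-Hochberg adjustment over all genes tested. Of 14375 genes tested, 6452 were called (44.9%), 3422 higher in the ileum (23.8%) and 3030 higher in the liver (21.1%). The median log2 difference over all genes, ileum minus liver, was 0.04. TMM sets library sizes so that most genes lie near 0, and on total counts without its factors the median was 1.13. This median and the near-even split of calls thus depend on the scaling and are not results about the tissues. The CPM of the 5 ilea and the 5 livers did not overlap for 8203 genes (57.1%). Past an 8-fold difference, 1109 genes were higher in the ileum and 869 in the liver, and past 100-fold 348 and 333. In all 5 livers 146 called genes had no read pair at all, and 72 had none in all 5 ilea. Among genes with a symbol and a mean of at least 50 CPM in the higher tissue, the 15 with the largest fitted difference were, in the ileum, SI, KRT20, FABP6, FABP2, LYPD8, TMIGD1, OLFM4, MS4A12, GPA33, REG4, CPO, SLC5A8, BTNL2, SPINK1 and SLC6A19. In the liver they were AHSG, ALB, HRG, TTR, PLG, CYP2E1, FGG, BHMT, APOH, SERPIND1, GC, SPP2, F9, SERPINA5 and C8A. Ileum and liver libraries carry titles of different forms, and the study describes the sequencing of liver as a separate analysis, so that tissue and library set cannot be told apart. The study also gives a lower minimum of RNA integrity for liver than for ileum, and RNA quality and tissue cannot be told apart in these libraries. In pieces of whole tissue, a cell type that is scarcer and a cell type that holds less of an RNA cannot be told apart either.

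**Figure D1:**
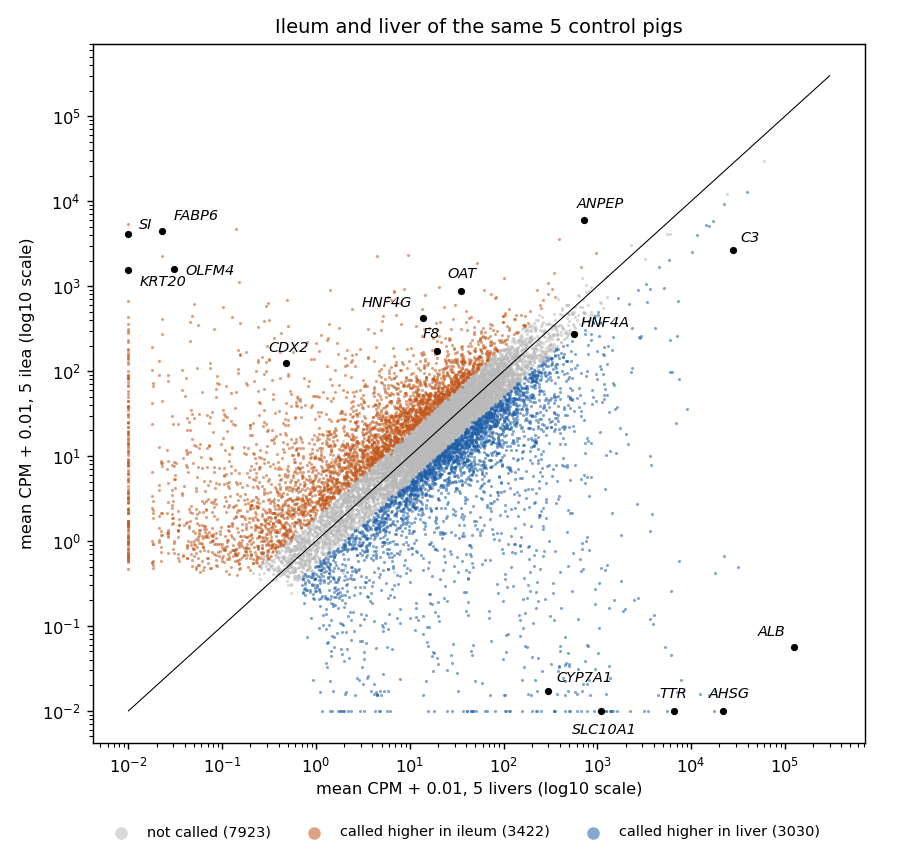
Mean level of each of the 14375 genes tested in the 5 livers (x axis) and the 5 ilea (y axis), in CPM with 0.01 added, on log10 axes. Colours mark the 3422 genes called higher in the ileum, the 3030 called higher in the liver and the rest, and named genes are labelled. SI, FABP6 and KRT20 lie along the left edge and ALB, AHSG and TTR along the bottom edge, where 1 tissue had almost no read pairs.

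The liver spent its transcripts on few genes and the ileum on many. The 10 most abundant genes took 26.1, 34.8, 25.2, 27.7 and 26.6% of the read pairs in the livers and 13.8, 12.9, 16.1, 14.3 and 13.9% in the ilea. The genes that together took 50% of read pairs numbered 36 to 74 in the liver and 543 to 754 in the ileum. At least 1 read pair was counted for 15972 to 16633 genes in the liver and for 17139 to 17608 in the ileum. In each of these measures all 5 pigs went the same way without overlap between tissues (exact permutation test over sign flips, two-sided, p = 0.0625 for each, the smallest p that 5 pairs allow, so that this design cannot reach 0.05). ALB alone took 8.56% ± 2.74 of the liver's read pairs. Among the 10 most abundant genes of the ileum, the single nuclear gene with a symbol was ANPEP, at 0.872% ± 0.0520, and the mitochondrial COX1 led with 4.35% ± 0.235.

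Genes for secreted plasma proteins took a large part of the liver's transcripts. All 23 tested were called higher in the liver, where together they took 17.0% ± 3.94 of read pairs, against 0.00198% ± 0.000172 in the ileum. ALB (albumin, the main protein of plasma; ENSSSCG00000008948, chromosome 8, 69643427 to 69663152 on Sscrofa11.1) was at 95574, 87858, 117262, 172941 and 147640.2 CPM in the 5 livers, and 7 read pairs were counted over the 5 ilea together. TF (transferrin, the iron carrier of plasma) was at 30138, 17783, 35233, 37010.0 and 38416 CPM in the liver and between 0.107 and 0.977 CPM in the ileum. Pig 80 was the lowest liver for both genes, and every liver stood far above every ileum. AHSG (fetuin-A) at 21844 ± 4103 CPM, TTR (transthyretin, which carries thyroxine and retinol-binding protein) at 6503 ± 775 CPM and PLG (plasminogen, the precursor of the enzyme that dissolves clots) at 6279 ± 1621 CPM had no read pair in any ileum. The median log2 difference of the list was -15.25 as fitted and -13.28 with genes near 0 set at 3 counts per library in that tissue. ITIH4, an inter-alpha-trypsin inhibitor heavy chain, kept the highest level in the ileum at 10.1 ± 1.33 CPM, against 3655 ± 1822 CPM in the liver.

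Called clotting factors followed the same direction with a single exception. Of 23 coagulation genes tested, 20 were called higher in the liver, 1 higher in the ileum and 2 were not called (median log2 difference -12.39). FGB, a chain of fibrinogen, was at 17963 ± 8532 CPM in the liver and 0.405 ± 0.207 CPM in the ileum. F9 (factor IX) at 1466 ± 229.9 CPM in the liver was not detected in any ileum, at least 15093-fold apart when computed against 3 counts per library, as are all bounds below. F8 (factor VIII, which endothelial cells are known to make) ran the other way, at 224, 159, 156, 209 and 113 CPM in the ileum and 17.1, 21.0, 23.2, 18.5 and 17.8 CPM in the liver. The tissues did not overlap, and the ileum was 8.63-fold higher (log2 difference 3.11, SE 0.19, adjusted p = 1.70e-06, edgeR). Not called were F3 (tissue factor, the starter of clotting), at 18.8 ± 6.40 and 10.4 ± 2.83 CPM in ileum and liver, and TFPI, its inhibitor, at 2.11 ± 0.916 and 2.17 ± 0.575 CPM. Without pig 92 F3 was called higher in the ileum (log2 difference 1.02).

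Complement genes were higher in the liver with several exceptions. Of 23 complement genes tested, 17 were called higher in the liver, 2 higher in the ileum and 4 were not called, with a median log2 difference of -2.56. C3, the component on which all activation routes meet, was at 2486, 2276, 2130.2, 3305 and 3284 CPM in the ileum and at 41408, 16658, 22372, 27359.8 and 32223 CPM in the liver. No ileum reached a liver, but C3 still ranked 18 among all genes of the ileum by read pairs, and the liver was 10.1-fold higher (SE of the log2 difference 0.32, adjusted p = 2.61e-05, edgeR). C8A, a part of the membrane attack complex, was at 1243 ± 213 CPM in the liver with no read pair in any ileum. C4BPA, which restrains the classical route, was at 868 ± 229.9 CPM in the ileum and 817 ± 319 CPM in the liver and was not called. FCN2, a ficolin that starts the lectin route, was called higher in the ileum at 146 ± 49.5 against 47.8 ± 23.2 CPM, as was CFD (factor D) at 29.9 ± 16.5 against 7.85 ± 5.90 CPM, where single pigs overlapped.

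Digestive enzymes and structural proteins of the brush border ran the other way. All 23 tested were called higher in the ileum, with a median log2 difference of 6.03, and together they took 3.47% ± 0.236 of its read pairs. SI (sucrase-isomaltase, which splits sucrose and starch fragments; ENSSSCG00000011735, chromosome 13, 104296281 to 104379558 on Sscrofa11.1) was at 4178, 3503, 4139, 4277 and 4453 CPM in the ileum with no read pair in any liver, at least 26219.9-fold apart. The 5 ilea lay close together. ANPEP (aminopeptidase N, which trims peptides) was at 5609, 5623, 6502, 6555 and 5586 CPM in the ileum and 618, 560.2, 788, 812 and 827 CPM in the liver. The liver thus held a clear level of ANPEP, and the ileum was 8.37-fold higher (log2 difference 3.06, SE 0.21, adjusted p = 3.21e-06, edgeR). MGAM (maltase-glucoamylase) at 3576 ± 554 and 392 ± 105.1 CPM and DPP4 (dipeptidyl peptidase 4) at 678 ± 104 and 263 ± 40.3 CPM were likewise present in both. ENPEP and ACE, peptidases of the angiotensin system, were 285- and 65.4-fold higher in the ileum. VIL1 and MYO1A, the villin and myosin that shape microvilli, were at 971 ± 221 and 897 ± 91.8 CPM in the ileum and at 20.4 ± 16.2 and 1.41 ± 0.519 CPM in the liver.

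**Figure D2:**
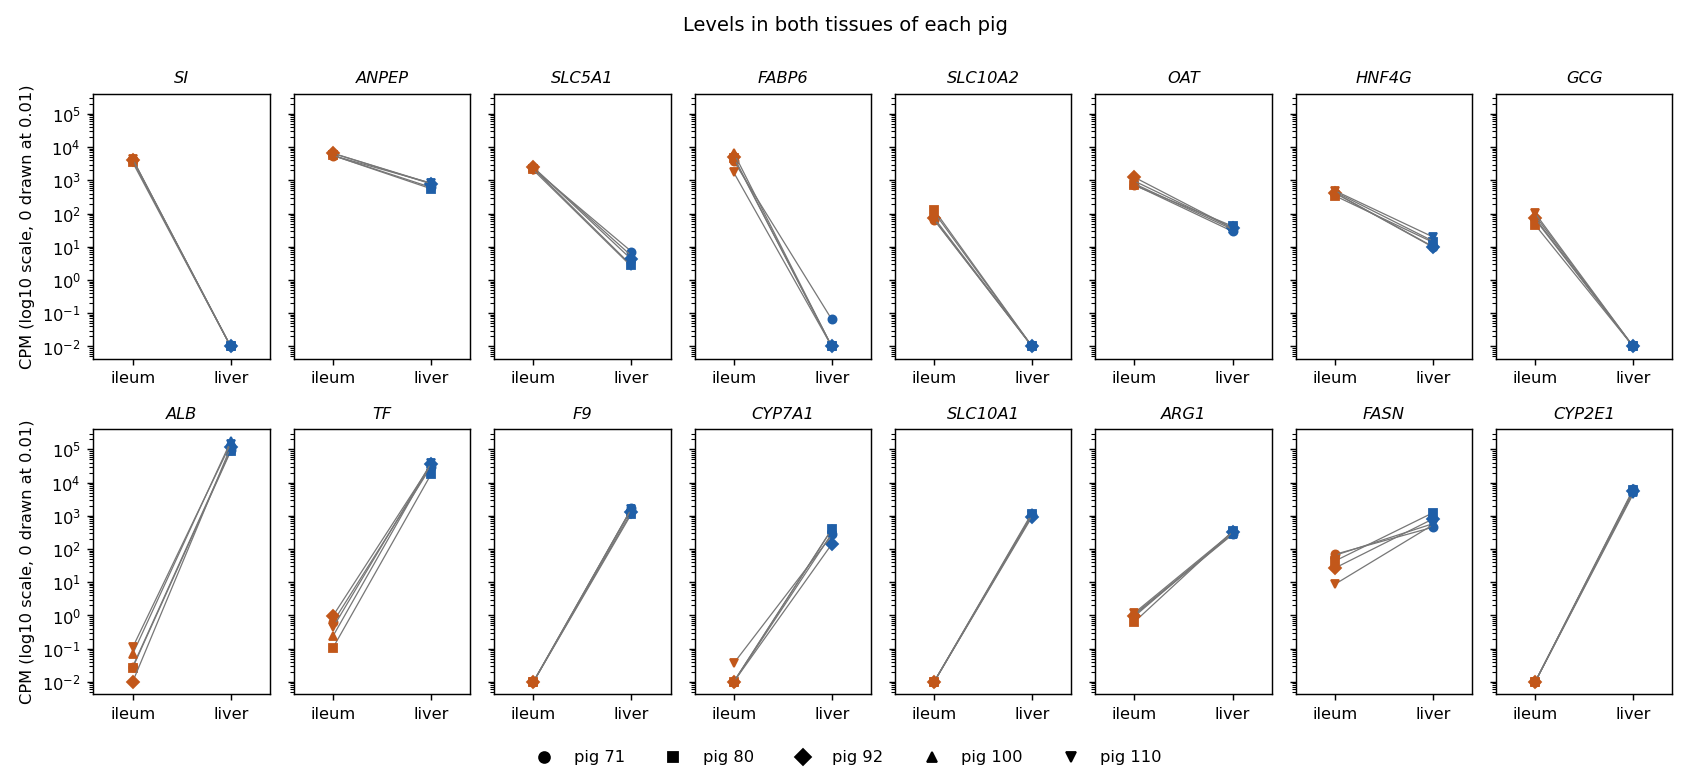
Levels of 16 genes in each pig, in CPM on a log10 axis, with ileum and liver libraries of the same pig joined by a line and values of 0 drawn at 0.01. The upper row holds genes called higher in the ileum, such as SI and SLC5A1, and the lower row genes called higher in the liver, such as ALB and SLC10A1. In every panel all 5 lines run in the same direction.

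Genes of the intestinal epithelial sheet were mostly higher in the ileum, and some junction and keratin genes were higher in the liver. Of 31 tested, 21 were called higher in the ileum, 4 higher in the liver and 6 were not called (median log2 difference 2.46). KRT20, a keratin of gut epithelium, was at 1505, 1372, 1538, 1913 and 1499 CPM in the ileum with no read pair in any liver, at least 9985-fold apart. KRT8, a keratin of simple epithelia, was at 925 ± 255 CPM in the ileum and 331 ± 46.3 CPM in the liver, while its usual partner KRT18 was called the other way, at 13.3 ± 0.968 and 213 ± 31.8 CPM. CDH17, a cadherin of gut epithelium, was at 685 ± 100.0 and 0.475 ± 0.396 CPM, and EPCAM at 753 ± 77.05 and 5.86 ± 2.56 CPM. The claudins, which set the tightness of cell junctions, differed by member. CLDN1 was at 229, 189.8, 213, 253 and 227 CPM in the liver and 0.114, 0.0533, 0.217, 0.103 and 0.725 CPM in the ileum, whereas CLDN7 was at 3.55 ± 0.906 and 147 ± 34.0 CPM. CLDN14 was at 15.8 ± 3.004 CPM in the liver with no read pair in any ileum, and CLDN2 and CLDN4 were not called. PIGR, which carries IgA across the epithelium, was 11.2-fold higher in the ileum and still at 73.5 ± 22.5 CPM in the liver.

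Transporters of nutrients and organic ions were divided between the tissues. Of 36 tested, 25 were called higher in the ileum, 6 higher in the liver and 5 were not called, with a median log2 difference of 2.73. SLC5A1 (the sodium-coupled glucose carrier SGLT1) was at 2203, 2267, 2486, 2425 and 2045 CPM in the ileum and 7.23, 2.77, 4.19, 5.37 and 2.58 CPM in the liver, 551-fold apart (adjusted p = 7.72e-08, edgeR). SLC15A1 (the peptide carrier PEPT1) was at 334 ± 80.5 and 0.233 ± 0.127 CPM, and SLC6A19 (a carrier of neutral amino acids) was at 127 ± 47.7 CPM in the ileum with no read pair in the liver. CUBN (cubilin, part of the receptor for vitamin B12 bound to intrinsic factor) was at 393 ± 154 and 0.269 ± 0.140 CPM, and its partner AMN was at 8.95 ± 3.06 CPM in the ileum alone. Those called higher in the liver included AQP9, SLC22A7, SLC38A4, SLC13A5 and SLC46A1. AQP9, a channel for water and glycerol, was at 936 ± 192 CPM in the liver and 0.261 ± 0.111 CPM in the ileum. SLC46A1, which takes up folate in the upper small intestine, was at 1.60 ± 0.629 CPM in the ileum and 19.1 ± 3.55 CPM in the liver.

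The genes of the bile acid cycle were divided between the tissues by step. All 7 genes of bile acid synthesis tested were called higher in the liver, with a median log2 difference of -7.15. CYP7A1, the rate-limiting enzyme of the classical route, was at 292, 391, 140.4, 397 and 258 CPM in the liver, and 1 read pair was counted over the 5 ilea. Pig 92 was the lowest liver. AKR1D1, a reductase of the route, was at 1780.5 ± 250.4 CPM in the liver and 1.17 ± 0.408 CPM in the ileum. Uptake differed between paired genes of a family. SLC10A2 (ASBT, which takes bile acids up from the gut) was at 65.2, 131, 74.4, 110.0 and 66.1 CPM in the ileum with no read pair in any liver, and SLC10A1 (NTCP, which takes them up from the blood) was at 1093, 1156, 947, 1246 and 1035 CPM in the liver with no read pair in any ileum. FABP6, which binds bile acids inside the ileal cell (ENSSSCG00000017037, chromosome 16, 63297594 to 63303675 on Sscrofa11.1), was at 3852, 4775, 5025, 6796 and 1734 CPM in the ileum and had 1 read pair over the 5 livers. It varied among the ilea, with pig 110 lowest and pig 100 highest. Export from the ileal cell runs through SLC51A and SLC51B, at 199.7 ± 29.4 and 238 ± 55.1 CPM in the ileum and 0.293 ± 0.158 and 27.1 ± 11.13 CPM in the liver. ABCB11 (BSEP, the pump into bile) was at 785 ± 96.7 CPM in the liver and 0.0484 ± 0.0562 CPM in the ileum.

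The hormone that links both organs was also divided between them. FGF19, which ileal cells release in response to bile acids and which lowers CYP7A1 in the liver, was at 1.48, 1.49, 3.40, 15.7 and 5.47 CPM in the ileum with no read pair in any liver. Its level spread widely among pigs, with pig 100 highest, as for FABP6. Pig 110 was next for FGF19 but had the lowest ileal FABP6, at 1734.5 CPM. The genes of its receptor were called higher in the liver, FGFR4 at 125 ± 21.3 against 9.50 ± 1.71 CPM and the co-receptor KLB at 260.4 ± 96.3 against 2.44 ± 0.633 CPM. NR1H4 (FXR, the nuclear receptor for bile acids) was present in both, at 61.3 ± 22.3 CPM in the ileum and 142 ± 24.3 CPM in the liver, 2.41-fold higher in the liver (log2 difference -1.27), a call that ended on total counts (-0.17). ABCG5 and ABCG8, which together export sterols, were at 136 ± 28.9 and 109.6 ± 25.3 CPM in the ileum and 134 ± 11.96 and 143 ± 27.9 CPM in the liver and were not called.

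Genes of lipid synthesis were higher in the liver. Of 24 genes of cholesterol synthesis and its control, 23 were called higher in the liver and none in the ileum (median log2 difference -3.18), and of 17 genes of fat synthesis 16 (median -3.54). FASN (fatty acid synthase) was at 453, 1231, 804, 578 and 533 CPM in the liver and 68.9, 43.4, 26.6, 64.2 and 8.66 CPM in the ileum. The tissues did not overlap, and the liver was 19.9-fold higher (log2 difference -4.31, SE 0.50, adjusted p = 8.10e-05, edgeR). SCD (stearoyl-CoA desaturase) was 21.2-fold higher in the liver. The members of these 2 lists that were not called were SCAP, which carries the sterol-sensing factors, and ACLY, which supplies acetyl-CoA, at log2 differences of -0.60 and -0.91, both of the opposite sign on total counts without scaling (0.50 and 0.18). Of 15 genes of fat absorption, 6 were called higher in the ileum, 5 higher in the liver and 4 were not called. In the PFA-fed pigs 3 were called higher in the ileum and 5 higher in the liver, and on total counts 9 and 3. FABP2, the intestinal fatty acid-binding protein, was at 2238 ± 372 CPM in the ileum with 1 read pair over the 5 livers. NPC1L1, which takes up cholesterol from the gut, was 23.9-fold higher in the ileum at 313 ± 42.6 against 14.3 ± 7.54 CPM.

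Apolipoproteins, the protein coats of lipid particles, were led by the liver, with 11 of 15 called higher there and 3 higher in the ileum. APOB, the scaffold of chylomicrons and VLDL, was at 2587, 1126, 2450.3, 2134 and 1898 CPM in the ileum and 6779, 4409, 4651, 6168 and 7048 CPM in the liver. The groups did not overlap, and the liver was 2.91-fold higher (log2 difference -1.54, adjusted p = 0.000412, edgeR), but the call ended on total counts (-0.44). APOA4 was called higher in the ileum, at 766, 157, 189, 726 and 75.6 CPM against 5.80, 62.1, 6.45, 7.72 and 22.7 CPM. Its ileal level varied widely between pigs, and the lowest ileum, pig 110, lay just above the highest liver, pig 80. APOBEC1, which edits the APOB transcript in the intestine, was at 13.2 ± 3.56 CPM in the ileum and 0.0617 ± 0.0899 CPM in the liver. LPL (lipoprotein lipase) was at 71.0 ± 12.5 CPM in the ileum and 0.0818 ± 0.0906 CPM in the liver. MTTP, which loads lipid onto APOB, was at 473 ± 81.1 and 345 ± 53.2 CPM and was not called.

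Of 26 genes of fatty acid oxidation and ketone metabolism, 19 were called higher in the liver, 2 higher in the ileum and 5 were not called (median log2 difference -1.68). On total counts 11 were called higher in the liver and 5 higher in the ileum (median -0.59). ECHS1, an enzyme of the mitochondrial spiral, was 14.3-fold higher in the liver. OXCT1, the enzyme by which tissues other than liver use ketone bodies, was at 109, 113, 132, 116 and 169 CPM in the ileum and 8.99, 6.20, 6.41, 7.84 and 5.73 CPM in the liver, 18.2-fold apart without overlap (adjusted p = 4.27e-07, edgeR). HADHA and HADHB, the subunits of the trifunctional protein, were at 172 ± 22.8 and 147 ± 15.5 CPM in the ileum and 251 ± 47.5 and 205 ± 53.5 CPM in the liver and were not called.

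Genes of nitrogen metabolism differed between steps of the same pathway. Of 15 genes of the cycle and of citrulline supply, 9 were called higher in the liver, 3 higher in the ileum and 3 were not called. CPS1, which makes carbamoyl phosphate, was at 716, 508, 798, 1027 and 693 CPM in the ileum and 1449.7, 763, 1154, 1412 and 1547 CPM in the liver. The ranges overlapped and CPS1 was not called (log2 difference -0.75, SE 0.17; on total counts without scaling the sign was opposite at 0.35). OTC, which makes citrulline, was 3.56-fold higher in the liver at 583 ± 164 against 160.5 ± 29.4 CPM (log2 difference -1.83, and -0.74 on total counts, where it was not called). ARG1, which releases urea, was 314-fold higher in the liver at 306 ± 26.9 against 0.980 ± 0.212 CPM. The genes that feed glutamine into citrulline in the gut were called higher in the ileum. OAT (ornithine aminotransferase) was at 733, 707, 1239, 790.0 and 953 CPM in the ileum and 29.2, 41.9, 36.7, 33.5 and 36.6 CPM in the liver, 24.5-fold apart without overlap (adjusted p = 1.76e-07, edgeR). ALDH18A1, which makes the precursor of ornithine from glutamate, was 2.32-fold higher in the ileum, and not called without pig 92 (log2 difference 0.99).

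Of 29 genes of amino acid breakdown tested, 25 were called higher in the liver (median log2 difference -5.57). BHMT, which returns a methyl group to homocysteine, was at 3147 ± 553 CPM in the liver, and HPD, of tyrosine breakdown, at 1073 ± 72.2 CPM, both with no read pair in any ileum. TDO2 and IDO1 open the breakdown of tryptophan by the same reaction. TDO2 was at 955 ± 207 CPM in the liver and 0.0213 ± 0.0195 CPM in the ileum, whereas IDO1, the 1 member called higher in the ileum, was at 2.68, 4.77, 1.16, 2.26 and 1.09 CPM in the ileum and 1.30, 0.221, 0.712, 0.664 and 0.286 CPM in the liver, with some overlap. MAT1A and MAT2A both make S-adenosylmethionine. MAT1A was at 340.4 ± 35.9 and 0.234 ± 0.150 CPM in liver and ileum, while MAT2A was at 237 ± 51.6 and 243 ± 33.3 CPM and was not called.

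In glucose metabolism the isoforms of several enzymes were divided between the tissues. Of 34 genes tested, 16 were called higher in the liver, 8 higher in the ileum and 10 were not called. The share called higher in the ileum was near the 23.8% over all genes, where 21.1% were called higher in the liver. On total counts 14 were called higher in the ileum and 11 higher in the liver. G6PC1, which releases free glucose, was at 746 ± 767 CPM in the liver and 14.1 ± 8.42 CPM in the ileum. PCK1, the key step of gluconeogenesis, was at 267, 1378, 949, 714 and 1498 CPM in the liver and 11.9, 34.8, 69.9, 26.2 and 77.4 CPM in the ileum, 22.9-fold apart (adjusted p = 9.59e-07, edgeR). Per kilobase of exon, the pyruvate kinase PKLR was at 108 CPM in the liver and 0.898 in the ileum, and PKM at 7.23 and 51.8. Hexokinase 2 (HK2) was at 0.138 CPM per kilobase in the liver and 4.71 in the ileum. GYS2, the glycogen synthase of liver, was at 346 ± 79.5 CPM in the liver with no read pair in any ileum, and GYS1 was not called. LDHA (lactate dehydrogenase A) was 4.59-fold higher in the ileum. The 8 called higher in the ileum were HK1, HK2, PFKP, PKM, LDHA, PYGB, FBP2 and ENO3.

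**Figure D3:**
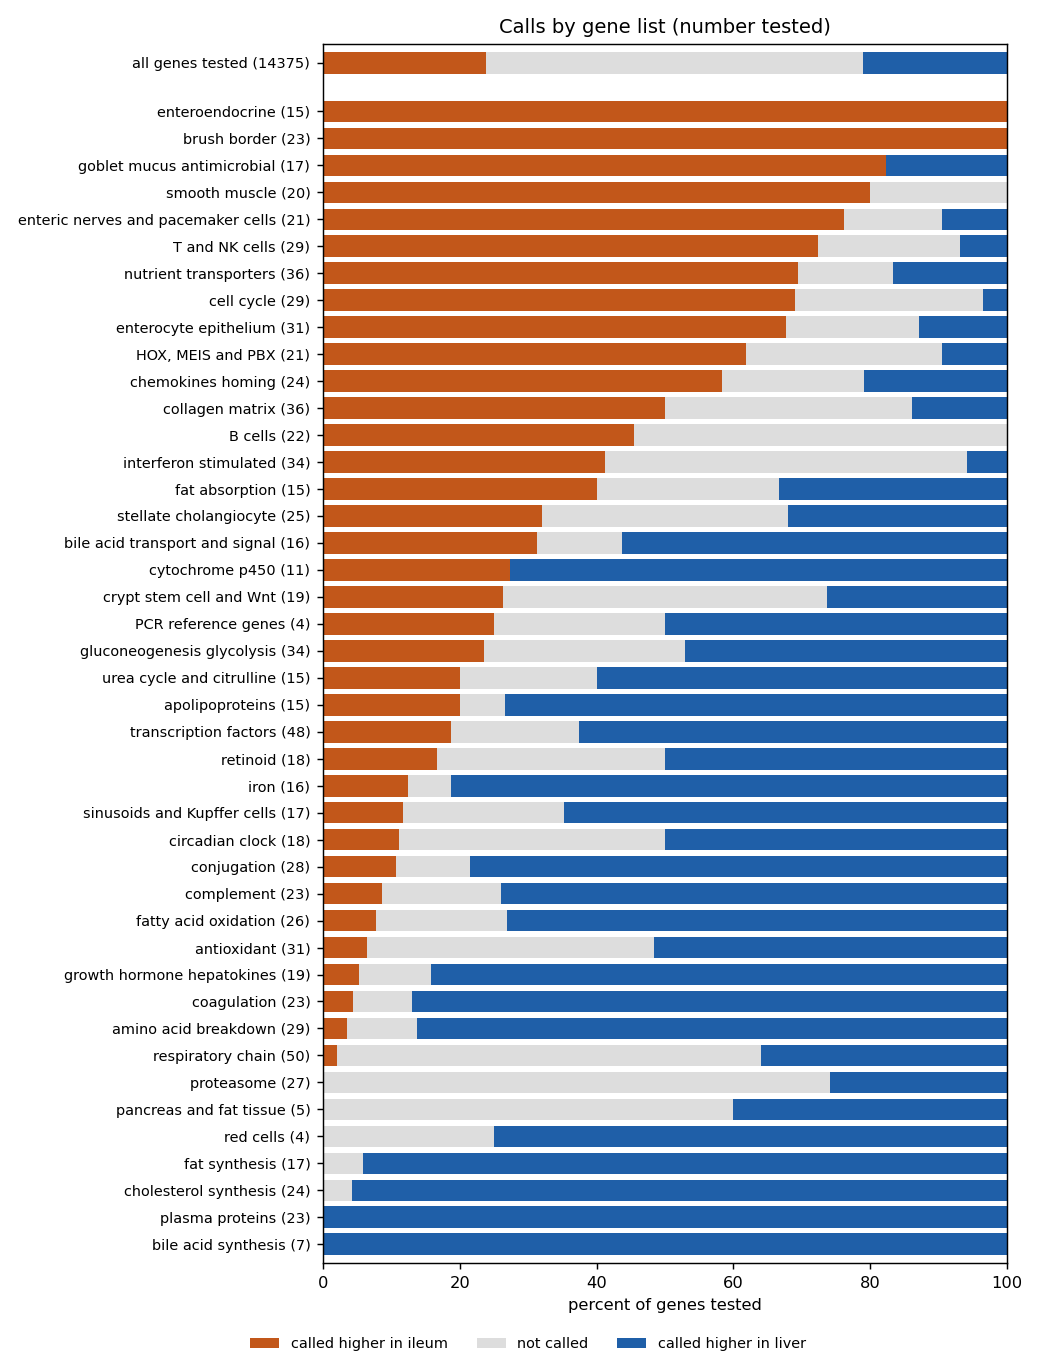
Share of the tested members of each gene list called higher in the ileum, not called, or called higher in the liver, with the number tested beside each list. The top bar gives the same shares over all 14375 genes tested (23.8%, 55.1% and 21.1%). Brush border, enteroendocrine and goblet cell genes fill the ileum side, and plasma protein, bile acid synthesis, cholesterol and fat synthesis genes the liver side.

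Iron and retinoid genes again differed member by member. Of 16 iron genes tested, 13 were called higher in the liver and 2 higher in the ileum. Those 2 were CYBRD1, the ferric reductase of the brush border, at 407 ± 175 against 28.7 ± 10.03 CPM, and HEPH, which oxidizes iron on its way out of the enterocyte, at 133 ± 9.95 against 0.303 ± 0.216 CPM. TFR2, a sensor of iron-laden transferrin, was at 538 ± 75.7 CPM in the liver and 0.250 ± 0.0895 CPM in the ileum, and SLC40A1 (ferroportin, the iron exporter) was 17.1-fold higher in the liver. Of 18 retinoid genes, 9 were called higher in the liver and 3 higher in the ileum. Without pig 80, 19 were tested, 13 called higher in the liver and 3 higher in the ileum (median log2 difference -1.97, against -1.43). Among the retinol-binding proteins, RBP2 was at 91.9, 63.9, 98.2, 156 and 51.5 CPM in the ileum and 0.391, 0, 0.712, 0.724 and 0.655 CPM in the liver. RBP4, the carrier in plasma, was at 3846, 3197, 4783, 3949 and 3862 CPM in the liver and at most 0.187 CPM in the ileum. Each was called in its own direction without overlap.

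Secreted regulators of growth and metabolism were mostly liver genes. Of 19 genes of growth hormone action and hepatokines, 16 were called higher in the liver and 1, the prolactin receptor PRLR, higher in the ileum. GHR (the growth hormone receptor) was 8.90-fold higher in the liver at 117 ± 30.0 against 13.2 ± 4.17 CPM, and IGF1, its main target, was at 14.9, 10.1, 9.45, 14.6 and 18.4 CPM in the liver and 5.40, 2.43, 4.70, 4.90 and 5.22 CPM in the ileum. LECT2, a hepatokine, was at 829 ± 125.6 CPM in the liver with 1 read pair over the 5 ilea. ANGPTL8, which takes part in restraining lipoprotein lipase, was at 104 ± 57.0 CPM in the liver with no read pair in any ileum. ANGPTL4, another inhibitor of that lipase, was present in both, at 117 ± 51.9 and 21.0 ± 4.94 CPM. FGF21, a hormone of fasting, was at 26.5, 17.9, 7.36, 19.1 and 8.47 CPM in the liver and at most 0.114 CPM in the ileum.

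Most genes of enzymes that modify foreign compounds were higher in the liver. Of 11 genes tested, cytochrome P450s with their reductase POR, 8 were called higher in the liver and 3 higher in the ileum, and of 28 genes of conjugation and related steps 22 and 3. Members of these families are similar in sequence, so that counts of single members are uncertain, and no gene of the CYP2C or CYP3A families carried a symbol in the tables used. CYP2E1, which oxidizes ethanol and small solvents, was at 6363, 5898, 5738, 5044 and 4541 CPM in the liver with no read pair in any ileum. CYP1A1, an inducible P450, was at 312, 178, 339, 234 and 63.3 CPM in the liver and at most 0.667 CPM in the ileum, and pig 110 was the lowest liver. The P450 genes called higher in the ileum were CYP2S1 at 13.2 ± 2.56 against 3.13 ± 0.449 CPM, CYP2W1 at 3.56 ± 1.31 CPM with no read pair in the liver, and CYP1B1 at 7.93 ± 1.97 against 2.22 ± 0.811 CPM. EPHX1 (epoxide hydrolase) and AOX1 (aldehyde oxidase) were 43.9- and 126.1-fold higher in the liver, ADH4, an alcohol dehydrogenase, was at 1101 ± 328 CPM in the liver with no read pair in any ileum, and the sulfotransferase SULT1B1 was 7.14-fold higher in the ileum. Of 31 antioxidant genes, 16 were called higher in the liver and 2, GPX2 and TXNRD1, higher in the ileum (TXNRD1 was not called without pig 80, at a log2 difference of 0.98). On total counts 8 were called higher in each tissue (median log2 difference -0.31, against -1.41). The glutathione peroxidase of the gut, GPX2, was at 62.2 ± 18.7 CPM in the ileum and 0.266 ± 0.233 CPM in the liver, and catalase (CAT) at 98.4 ± 18.3 and 5989 ± 1438 CPM.

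Transcription factors of the gut and liver epithelium included genes present in both tissues and genes found in 1 of them. Of 48 tested, 30 were called higher in the liver and 9 higher in the ileum (median log2 difference -1.34). On total counts 18 were called higher in the liver and 15 higher in the ileum (median -0.24). HNF4A, a nuclear receptor of both epithelia, was at 295, 224, 301, 293 and 241 CPM in the ileum and 491, 589.7, 469.7, 664 and 589 CPM in the liver. The ranges did not overlap, and the liver was 2.07-fold higher, close to the 2-fold limit, with the opposite sign on total counts (0.05). Without pig 80 or without pig 110 HNF4A was not called (log2 differences -0.96 and -0.99). Its relative HNF4G was 31.9-fold higher in the ileum, at 419, 346, 424, 457 and 490.4 CPM against 9.84, 13.7, 10.2, 14.96 and 19.9 CPM. CDX2, which sets intestinal identity, was at 124 ± 14.1 CPM in the ileum and 0.472 ± 0.233 CPM in the liver, and ISX, which controls retinoid uptake in the gut, at 39.2 ± 6.85 CPM with no read pair in the liver. ONECUT1, a factor of liver development, was at 63.6 ± 30.8 CPM in the liver with no read pair in the ileum. The GATA family divided, with GATA4 3.98-fold higher in the liver and GATA5 and GATA6 116- and 2.63-fold higher in the ileum. The vitamin D receptor (VDR) was 155-fold higher in the ileum.

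The bases just before the starts of the most divided genes were searched for short motifs of such factors, on both strands, from 250 bases before to 50 after the RefSeq gene start on Sscrofa11.1. Windows were read for 238 of the 348 genes called at least 100-fold higher in the ileum, for 221 of the 333 called at least 100-fold higher in the liver and for 11398 of all genes tested. The CDX motif CCATAAA was in 4.62% of the ileum set, 0.452% of the liver set and 2.01% of all genes tested. The HNF1 motif GTTAATNAT was in 1.26% of the ileum set, 6.33% of the liver set and 0.614% of all genes tested. The FOXA motif TGTTTAC was in 3.78, 6.33 and 2.49%, the HNF4 motif CAAAGTCCA in 0.840, 1.81 and 0.360%, and TATAAA in 20.2, 18.1 and 8.06%. The C/EBP motif TTGCGCAA was in neither set and in 0.211% of all genes tested. Matches of different motifs overlapped in 1 of 13694 windows (HNF4 with FOXA), and matches of TATAAA on both strands at 1 place in 92. These shares are descriptions, and binding was not measured.

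Shown next are the 150 bases before the gene start for the 3 ileum genes with a CDX match and the 3 liver genes with an HNF1 match in that stretch that had the highest CPM, 5′ to 3′ along the gene, with matches of any searched motif in capitals. In SI and the 2 other ileum genes the capitals TTTATGG are the CDX motif on the opposite strand, and TTTATA in SI is TATAAA on the opposite strand.
SI (minus strand, Sscrofa11.1 chr13:104379559-104379708): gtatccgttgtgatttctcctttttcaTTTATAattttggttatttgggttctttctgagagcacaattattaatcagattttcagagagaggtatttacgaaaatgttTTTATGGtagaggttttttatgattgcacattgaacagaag
MS4A12 (minus strand, Sscrofa11.1 chr2:11193745-11193894): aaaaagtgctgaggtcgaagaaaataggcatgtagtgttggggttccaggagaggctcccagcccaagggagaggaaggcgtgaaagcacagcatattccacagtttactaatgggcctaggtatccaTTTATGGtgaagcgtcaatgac
LGALS2 (plus strand, Sscrofa11.1 chr5:10237622-10237771): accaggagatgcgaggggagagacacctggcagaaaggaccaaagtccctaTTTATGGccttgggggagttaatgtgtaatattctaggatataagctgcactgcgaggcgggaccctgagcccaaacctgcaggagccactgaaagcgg
ALB (plus strand, Sscrofa11.1 chr8:69643277-69643426): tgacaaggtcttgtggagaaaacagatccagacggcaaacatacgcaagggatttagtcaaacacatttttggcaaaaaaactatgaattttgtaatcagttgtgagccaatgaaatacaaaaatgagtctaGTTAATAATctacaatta
GC (minus strand, Sscrofa11.1 chr8:68360263-68360412): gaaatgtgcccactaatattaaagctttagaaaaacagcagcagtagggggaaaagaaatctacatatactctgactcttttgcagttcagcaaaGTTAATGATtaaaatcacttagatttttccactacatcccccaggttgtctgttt
PLG (plus strand, Sscrofa11.1 chr1:7062249-7062398): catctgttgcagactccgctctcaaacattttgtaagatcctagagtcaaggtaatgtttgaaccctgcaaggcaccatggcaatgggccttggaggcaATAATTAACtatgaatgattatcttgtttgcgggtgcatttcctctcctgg
The CDX match began 41, 22 and 99 bases before the start of SI, MS4A12 and LGALS2, and the HNF1 match 18, 55 and 51 bases before that of ALB, GC and PLG. MS4A12, a membrane protein of the gut, was at 239.9, 257, 304, 297 and 388 CPM in the ileum with no read pair in any liver, and LGALS2 (galectin 2) at 216 ± 64.3 and 0.9995 ± 1.10 CPM in ileum and liver. GC, the vitamin D-binding protein of plasma, was at 9646, 5302, 7556, 8340.5 and 8499.6 CPM in the liver with 2 read pairs over the 5 ilea.

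Most of the called HOX genes, which record position along the body axis, were higher in the ileum. Of 37 genes of the list found in the files (HOX genes with their partners MEIS and PBX), 21 had enough counts to be tested, and 13 were called higher in the ileum and 2 higher in the liver. Genes with counts in the ileum alone could pass this filter. With at least 10 counts in every library 5 were tested, 2 called higher in the ileum and 1 higher in the liver (median log2 difference 0.11, against 2.04). With no filter 30 were tested, 16 called higher in the ileum and 2 higher in the liver. HOXC8 and HOXC6 were at 6.91, 4.35, 10.7, 4.01 and 16.9 CPM and 5.16 ± 2.81 CPM in the ileum with no read pair in any liver. HOXA5 was at 10.04 ± 2.76 and 2.49 ± 0.813 CPM. HOXB2, near the front end of its cluster, was at 2.78 ± 1.00 and 2.64 ± 0.727 CPM and was not called. MEIS1 was among the 2 called higher in the liver (log2 difference -1.37). Its call ended on total counts (-0.28) and in the PFA-fed pigs (-0.97), and on total counts, on the PCR reference genes and in a test against 2-fold no gene of the list was called higher in the liver.

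Genes of the secretory cells of the gut lining were high in all ilea. Of 17 goblet cell, mucus and antimicrobial genes tested, 14 were called higher in the ileum and 3 higher in the liver. With at least 10 counts in every library 5 were tested, 4 called higher in the ileum and 1 higher in the liver. CLCA1, a secreted component of mucus, was at 1149, 878, 1150.4, 1136 and 1233 CPM in the ileum and at most 0.554 CPM in the liver. MUC2, the mucin of the gel layer, was at 192 ± 52.9 CPM in the ileum with a single read pair over the livers, and LYZ (lysozyme) at 887 ± 579 and 6.80 ± 4.20 CPM. The 3 called higher in the liver were DEFB1 (a defensin), LCN2 and LTF, all at low levels, with DEFB1 at 26.5 ± 26.9 against 0.754 ± 0.418 CPM. All 15 enteroendocrine genes tested were called higher in the ileum (median log2 difference 8.55 as fitted, 5.64 with bounds). The filter also admits genes with counts in 1 tissue alone, so that being tested and being called were not independent here. With at least 10 counts in every library 2 were tested, both called higher in the ileum. With no filter 21 were tested, 17 called higher in the ileum and 1 higher in the liver. GCG, the gene of glucagon-like peptides 1 and 2, was at 67.1, 45.7, 73.5, 88.1 and 103 CPM in the ileum and NTS (neurotensin) at 28.5, 28.7, 58.8, 37.5 and 59.4 CPM. GIP and SST, of upper-gut hormone cells and of somatostatin cells, were at 7.82 ± 3.57 and 12.3 ± 4.36 CPM. GCG, GIP and SST had no read pair in any liver.

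Of 19 genes of crypt stem cells and of the Wnt pathway, 5 were called higher in each tissue and 9 were not called, shares near those over all genes (23.8% and 21.1%). OLFM4, a crypt gene, was at 1362, 1081, 1259.6, 2054 and 2139 CPM in the ileum with 2 read pairs over the livers. LGR5, the marker of crypt stem cells, was called the other way, at 4.25, 2.83, 4.30, 2.50 and 4.06 CPM in the ileum and 10.2, 20.1, 4.47, 10.02 and 6.59 CPM in the liver (log2 difference -1.37). Its call ended on total counts (-0.27), on the PCR reference genes (-0.38), in a test against 2-fold (adjusted p = 0.179, edgeR's glmTreat) and in the PFA-fed pigs (-0.63). The Wnt feedback genes ZNRF3, NKD1 and NOTUM were also called higher in the liver, NOTUM at 36.4 ± 22.1 against 1.14 ± 0.324 CPM. Of 29 cell cycle genes, 20 were called higher in the ileum and 1 (CCND1) higher in the liver. TOP2A, a topoisomerase of dividing cells, was at 177, 269, 170.0, 243 and 159 CPM in the ileum and 20.6, 29.4, 27.3, 24.3 and 37.7 CPM in the liver, 7.29-fold apart without overlap (adjusted p = 4.05e-06, edgeR).

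Genes of smooth muscle and of enteric nerves were mostly higher in the ileum. Of 20 smooth muscle genes, 16 were called higher in the ileum and none in the liver. MYH11, the smooth muscle myosin, was at 1843, 709, 2617, 1083 and 3212 CPM in the ileum and 27.0, 71.8, 82.4, 48.3 and 33.2 CPM in the liver. Even the lowest ileum, pig 80, was well above the highest liver, but the ilea differed widely, and the 5 smooth muscle markers summed to between 1209 and 5291 CPM. Whether the muscle content of the pieces affected other differences was not tested. Of 21 genes of enteric nerves and pacemaker cells, 16 were called higher in the ileum, among them VIP, a transmitter of the gut, at 16.3, 19.3, 30.8, 15.1 and 39.3 CPM with no read pair in any liver. The 2 called higher in the liver were ANO1, a chloride channel that also marks pacemaker cells, at 159 ± 11.9 against 13.5 ± 6.68 CPM, and NGFR at 37.9 ± 14.6 against 1.12 ± 0.312 CPM. With at least 10 counts in every library, 7 genes of this list were tested and 2 called higher in each tissue. Of 36 collagen and matrix genes, 18 were called higher in the ileum and 5 higher in the liver, where FN1 (fibronectin, which hepatocytes secrete into plasma) led at 7229 ± 1867 against 663 ± 306 CPM. In the PFA-fed pigs 11 of the 36 were called higher in the ileum (median log2 difference 0.29, against 0.99), and on total counts 29.

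T cell genes were mostly higher in the ileum. Of 29 T and NK cell genes, 21 were called higher in the ileum and 2 higher in the liver. CD3E, a part of the T cell receptor complex, was at 77.5, 76.3, 78.2, 80.8 and 79.1 CPM in the ileum and 10.4, 18.1, 9.65, 7.42 and 5.48 CPM in the liver, 8.27-fold apart without overlap (log2 difference 3.05, SE 0.25, adjusted p = 8.81e-06, edgeR). The gut homing genes ITGAE and CCR9 were 19.1- and 33.6-fold higher in the ileum, and CCL25, the ligand of CCR9, was at 217 ± 43.7 and 1.65 ± 0.213 CPM. EOMES was among the 2 called higher in the liver.

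Part of the B cell genes depended on 1 pig. Of 22 tested, 10 were called higher in the ileum, none in the liver and 12 were not called, and the ileum of pig 80 was the highest ileum for 17 of the 22. MS4A1 (CD20) was at 0.828, 88.5, 0.796, 0.891 and 0.797 CPM in the ileum and 2.67, 3.93, 1.38, 1.03 and 1.27 CPM in the liver, and PAX5, the factor that fixes B cell identity, at 0.314, 133, 0.217, 0.308 and 0.109 and 1.82, 3.21, 2.53, 1.33 and 1.06 CPM. Pig 80's ileum stood far above every other library for both genes, and the other 4 ilea lay below every liver. Neither was called. The mean of the 5 ilea was thus higher than that of the livers for PAX5 while the fitted log2 difference was negative (-1.16, SE 1.39). With no block for the pig it was 3.75. Without pig 80, 9 of the 22 genes were called higher in the ileum and 5 higher in the liver (median log2 difference 0.49 in place of 1.08), and PAX5 was then at -2.80. In the 5 PFA-fed pigs, MS4A1 was lower in the ileum, at a log2 difference of -1.76 (adjusted p = 0.00375, edgeR, Benjamini-Hochberg adjusted). The germinal centre genes RGS13 and GCSAM shared this pattern within the ileum, at 1.37, 15.04, 2.71, 1.37 and 2.17 and 5.22, 27.2, 4.41, 4.97 and 4.97 CPM. JCHAIN, the joining chain that plasma cells add to IgA, did not: it was at 866, 431, 402, 647 and 528 CPM in the ileum and 31.7, 30.6, 28.5, 8.51 and 17.5 CPM in the liver, high in every ileum (25.7-fold, adjusted p = 9.13e-06, edgeR).

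**Figure D4:**
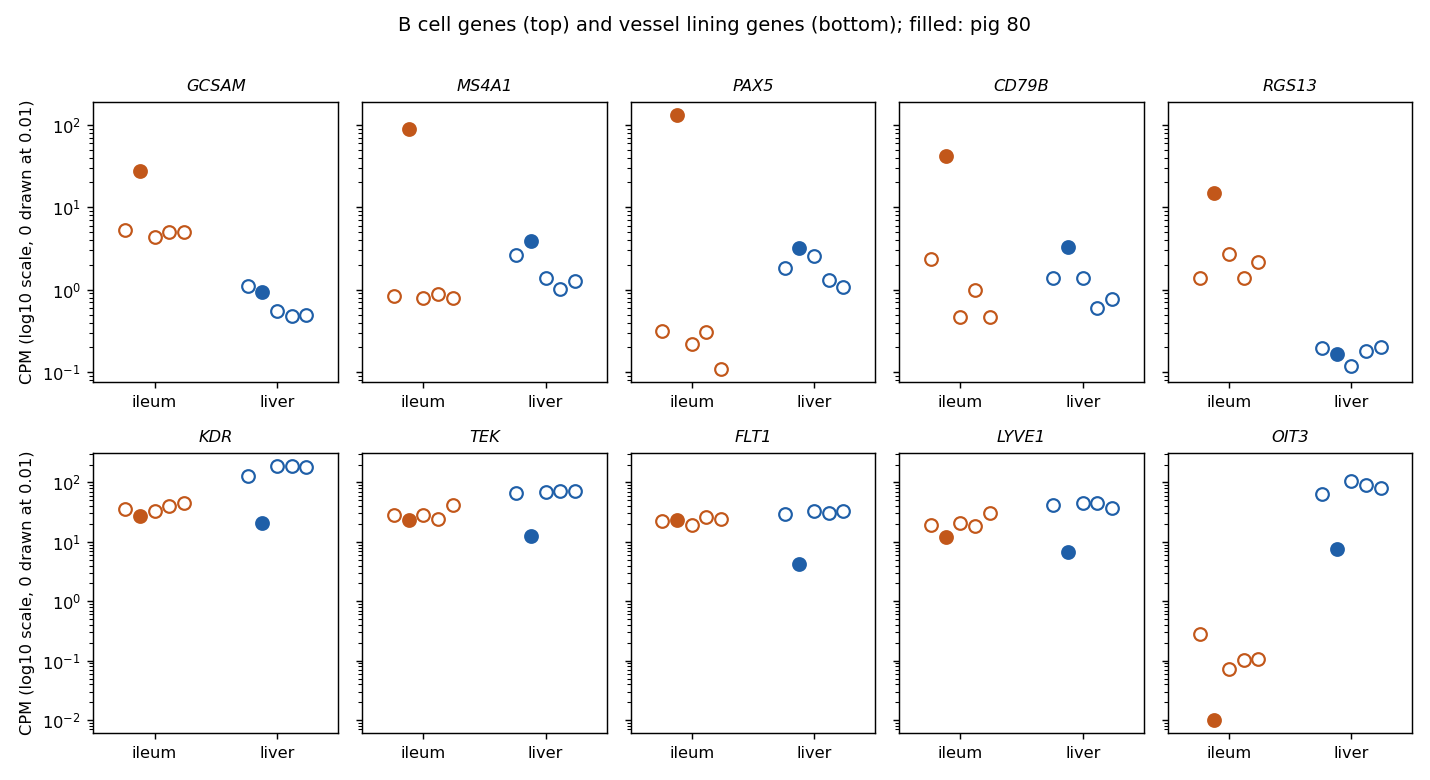
Levels of 5 B cell genes (GCSAM, MS4A1, PAX5, CD79B, RGS13) and of 5 genes of blood vessel lining (KDR, TEK, FLT1, LYVE1, OIT3) in each library, in CPM on a log10 axis, with pig 80 as filled and the other pigs as open symbols, ilea and livers side by side. Pig 80 is the highest ileum for all 5 B cell genes and the lowest liver for all 5 vessel genes.

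Among other immune genes more were called higher in the ileum than in the liver, with members on both sides. Of 34 interferon-stimulated genes, 14 were called higher in the ileum, 2 (IFI6 and STAT2) higher in the liver and 18 were not called. Over all genes 23.8% were called higher in the ileum and 21.1% higher in the liver, 44.9% together. The share of this list called in either direction was near 44.9%. Its share called higher in the ileum was above that over all genes, and its share called higher in the liver below. GBP1, an interferon-induced GTPase, was at 1342, 989.7, 1294, 1656 and 976 CPM in the ileum and 154, 78.7, 118, 77.9 and 73.6 CPM in the liver, 12.7-fold apart without overlap (adjusted p = 1.46e-06, edgeR), and TAP1, a peptide transporter of antigen presentation, was 8.66-fold higher in the ileum. MX1, by contrast, was at 21.8, 93.4, 59.5, 156 and 38.7 CPM in the ileum and 12.5, 75.6, 108, 51.6 and 79.1 CPM in the liver. Its ranges overlapped widely and it was not called. Among chemokines and homing receptors 14 of 24 were called higher in the ileum and 5 higher in the liver. CXCL8 and CXCL14 were 65.0- and 54.6-fold higher in the ileum, and CXCL12 4.27-fold higher in the liver, where CCL16 was at 1321 ± 160.3 CPM with 4 read pairs over the 5 ilea.

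Genes of the lining cells and resident macrophages of the liver were low in the liver of pig 80. Of 17 genes of sinusoids and Kupffer cells, 11 were called higher in the liver and 2, FCN2 and F8, higher in the ileum (12 and 2 without pig 80), and the liver of pig 80 was the lowest liver for 14 of the 17. MARCO, a scavenger receptor of macrophages, was an exception, highest in pig 80, at 31.5, 72.8, 35.7, 48.3 and 41.7 CPM in the liver and at most 1.28 CPM in the ileum. OIT3, of sinusoidal endothelium, was at 62.8, 7.69, 106, 90.5 and 79.4 CPM in the liver, 5-fold or more lower in pig 80 than in any other pig. KDR, a receptor for vascular growth factor, was at 125.8, 20.5, 189, 192 and 181 CPM in the liver and 35.3, 27.5, 33.2, 40.0 and 44.9 CPM in the ileum. For KDR the liver of pig 80 lay below every ileum while the other livers lay above, and without pig 80 its log2 difference moved from -1.70 to -2.15.

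Genes of other cell types of the pieces went both ways. Of 25 genes of stellate cells and bile duct cells, 8 were called higher in each tissue and 9 were not called. Over all genes 23.8% were called higher in the ileum and 21.1% higher in the liver. Without pig 80, 9 of the 25 were called higher in the ileum and 10 higher in the liver. COLEC11 and RELN, of stellate cells, were 60.5- and 6.40-fold higher in the liver, while DES, LUM and COL3A1, which muscle and fibroblasts of the gut also make, were higher in the ileum. Of 4 red cell genes 3 were called higher in the liver, with HBB (beta globin) at 169, 829, 604, 236 and 347 CPM in the liver and 26.0, 20.5, 21.3, 17.2 and 17.7 CPM in the ileum. Markers of pancreas and fat tissue were low in both, with 2 of 5 (CPA1 and PLIN1) called higher in the liver, CPA1 at 4.53 ± 2.01 against 0.466 ± 0.106 CPM. Whether blood in the liver pieces affected other differences was not tested. Of 18 clock genes, 9 were called higher in the liver and 2 higher in the ileum, and CLOCK and BMAL1, the core pair, were at 57.4 ± 7.504 and 19.6 ± 6.24 CPM in the ileum and 46.6 ± 4.71 and 19.2 ± 11.2 CPM in the liver and were not called. On total counts both were called higher in the ileum (1.39 and 1.30 on the log2 scale).

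In genes of the shared machinery of cells the sign of the median turned with the scaling. Of 50 nuclear genes of the respiratory chain 18 were called higher in the liver, 1 (CYCS) higher in the ileum and 31 were not called, against 55.1% over all genes (median log2 difference -0.80, which turned to 0.29 on total counts). Of 27 proteasome genes 7 were called higher in the liver, a share near the 21.1% over all genes, and none in the ileum, against 23.8% (median -0.64, and 0.46 on total counts). On total counts, with no factor for the few very abundant liver genes, the median of all genes rose by 1.1 on the log2 scale, 7805 genes were called higher in the ileum and 1306 higher in the liver (85.7% of calls, against 53.0% with TMM). Of the 1978 genes past 8-fold, 1977 were called in the same direction on total counts, and every called gene whose sign turned lay at a log2 difference of at most 1.1 in size.

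Genes that the study used as references for PCR were not equal between the tissues. HPRT1 was at 21.3, 24.7, 18.5, 19.5 and 20.6 CPM in the ileum and 224, 168, 176, 212 and 236 CPM in the liver, 9.68-fold higher in the liver (adjusted p = 2.97e-07, edgeR). GAPDH was 2.10-fold higher in the liver, close to the limit and turned in sign on total counts (0.03), and ACTB 2.51-fold higher in the ileum. Without pig 110 GAPDH was not called (log2 difference -0.91). RPL32, a ribosomal protein gene, was at 238 ± 36.7 and 437 ± 53.9 CPM in ileum and liver and was not called (log2 difference -0.88, 0.21 on total counts, and called at -1.03 without pig 80).

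**Figure D5:**
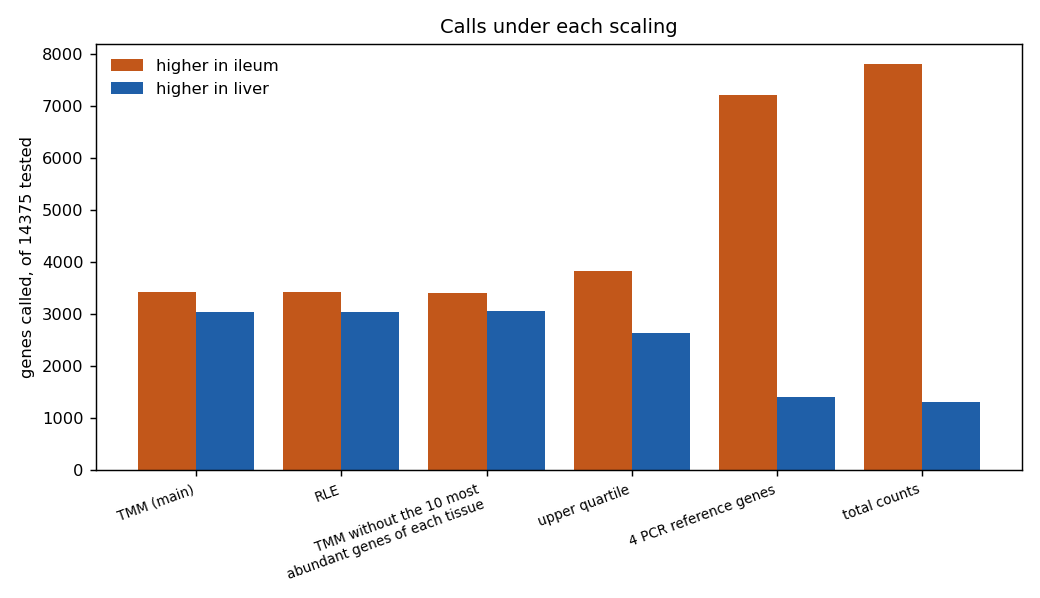
Number of genes called higher in the ileum and in the liver under the main TMM scaling and each other scaling, out of 14375 genes tested. TMM and RLE give nearly equal numbers on both sides, upper-quartile scaling gives 3831 and 2643, and total counts or scaling to 4 PCR reference genes moves most calls to the ileum (7805 and 7204, against 1306 and 1412).

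The same comparison in 5 other animals gave close numbers of calls. Among them, the liver titles of pigs 75, 95 and 134 have the form of that of control pig 80 apart from the final number. Those of pigs 107 and 138 do not have that form. In the PFA-fed pigs 6430 of 14388 genes tested were called (44.7%), and 5594 genes were called in both sets of pigs, 86.7% of the control calls and 87.0% of the PFA calls, each in the same direction. Of the 6340 genes called in control pigs and tested in PFA pigs, 6310 had the same sign. No gene passed the test of the difference between diets in the tissue difference (0 of 14982 at an adjusted p of at most 0.05, smallest 0.931, edgeR, Benjamini-Hochberg adjusted, and 720 genes at an unadjusted p under 0.05). The log2 difference of CDX2 was 7.99 in control pigs and 7.34 in PFA pigs. That of ANPEP was 3.06 and 2.75, for FASN -4.31 and -4.53, and for OAT 4.61 and 4.53.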

How the data were processed

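RNA of ileum and liver was sequenced from poly(A)-enriched, stranded libraries. The authors aligned the reads with STAR (2.6.1d) to Sscrofa11.1 and counted them per gene with HTSeq, and they deposited whole-number counts of read pairs per Ensembl gene, with no normalization. Neither the annotation release nor the strand setting of the counting is given in the sources used here, so that overlapping and antisense genes may share reads. The whole-series tables matched the single-sample files in all 879920 values compared. Reads outside genes were left out of library sizes, at 24.8 ± 1.99 per 100 pairs on genes in the ileum and 15.7 ± 4.37 in the liver (SD, n = 5).

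Of 25880 genes, 14859 carried a symbol (2 of them from the study's primer table), and 13707 were placed on Sscrofa11.1 through RefSeq. Counts were tested with edgeR 4.0.16 (R 4.3.3, limma 3.58.1) after filterByExpr and TMM scaling, in a quasi-likelihood model with pig and tissue, two-sided, with Benjamini-Hochberg adjustment. Pairs come from the pig numbers in the titles, and presence of the Y-linked genes KDM5D and EIF1AY agreed between the tissues of 10 of 10 pigs. These genes cannot tell pigs of the same sex apart. Deviations from the tissue means correlated between the tissues of a control pig at r = 0.039, 0.24, 0.051, -0.039 and 0.33. In PFA-fed pigs 75, 95, 107, 134 and 138, r was 0.042, 0.041, 0.20, 0.46 and -0.26. Different pigs reached similar values, as with 0.28 for the ileum of pig 110 and the liver of pig 100. The interaction with diet was fitted over the 20 libraries of the 10 pigs. Genes with at most 3 counts in every library of a tissue were given a bound set at 3 counts per library (0.0971 CPM in the ileum and 0.157 in the liver). CPM per kilobase used the summed exon length of the RefSeq annotation. Alternatives were other scalings, DESeq2 1.42.0, glmTreat, other filters, no block, each pig left out, PFA-fed pigs and an added liver. Scripts were tested on simulated data. Figures used Python 3.11.15 and matplotlib 3.10.9. The planned comparison of protein sequences was not made here, and windows at gene starts were read from the RefSeq genome of the same assembly.

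Named genes were the 15 with the largest differences in each direction at 50 CPM or more, the 10 most abundant of each tissue where they had a symbol, members of the 44 lists and the 4 PCR references. A few members of these lists are not reported here by name. The members and lists were chosen with earlier results of these data known.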

Additional observations from a re-analysis of the deposited data

Results flagged for a closer look

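Single libraries far from the other 4 of their tissue were searched in 366 groups of 5 libraries (named genes and library measures) with Dixon's ratio. Of these, 37 groups held one (10.1%). The usual rate of about 1 in 20 holds for independent, normally distributed groups. The genes were chosen with earlier results of these data known and can vary together, so that 10.1% cannot be set against that rate. The liver of pig 80 accounted for 17 of them and its ileum for 8. Values are in CPM unless stated.

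The liver of pig 80 lay above the other 4 livers for COX1 (124200), the Wnt targets NOTUM (75.1), ZNRF3 (75.8) and NKD1 (25.3), the FGF19 receptor FGFR4 (162) and the P450 reductase POR (287). It lay below them for the endothelial genes FLT1 (4.31), TEK (12.6) and LYVE1 (6.86), for FN1 (3958), LDHA (63.0) and CYBRD1 (11.01). In the same library 29.9% of read pairs fell on the mitochondrial genome and 34.8% on the 10 most abundant genes, and per 100 pairs on genes there were 23.5 outside genes, 7.04 with more than 1 place in the genome and 4.44 that could not be given to a single gene. Each of these 5 measures was far above the other 4 livers. The liver of control pig 85, whose title has the form of pig 80's, had 17.0% of read pairs on the mitochondrial genome. Per 100 pairs on genes it had 18.5 outside genes and 6.27 with more than 1 place. In PFA-fed pigs 75, 95 and 134, with titles of that form but another final number, pairs with more than 1 place were 6.14, 5.22 and 7.73. They were 3.02 and 3.73 in pigs 107 and 138, with the other form. Pairs outside genes did not divide so, at 9.31, 7.54 and 13.5, against 12.6 and 14.2. Whether these library measures or the form of the title had a part in the gene differences was not tested.

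The ileum of pig 80 lay above the other ilea for the B cell genes MS4A1 (88.5), PAX5 (133), CD79B (41.8), RGS13 (15.04) and GCSAM (27.2) and for the chemokine CXCL14 (148), and below them for CLCA1 (878) and IGF1 (2.43).

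In the ileum of pig 100, FGF19 (15.7), its co-receptor KLB (3.56) and the peptidase ACE (992) were above the other 4. In the ileum of pig 110, AOX1 (15.6), GHR (20.4) and TEK (41.0) were above and GAPDH (340.2) and NOTUM (0.58) below. Among the livers, pig 71 was above the others for DEFB1 (73.9) and below for SLC51B (7.88), pig 92 was above for LTF (1.74), and pig 110 was above for G6PC1 (2077), against 144 to 616 CPM in the other 4 livers.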

How the results depend on the processing

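The totals moved most with the scaling and the thresholds. Of the 6452 genes called, 3422 were higher in the ileum and 3030 higher in the liver. With the adjusted p alone 10000 genes were called, 5135 higher in the ileum and 4865 higher in the liver. On total counts the split was 7805 and 1306, and with each library scaled to the 4 PCR reference genes 7204 and 1412. With at least 10 counts required in every library, which removes genes found in 1 tissue alone, 11921 genes were tested and 2201 were called higher in the ileum and 2296 higher in the liver. RLE and upper-quartile factors, TMM without the 10 most abundant genes of each tissue, DESeq2 (6473 calls), no filter (7341), a test against 2-fold (4812), the PFA-fed pigs (6430) and the added liver of pig 85 (6555) kept the number called within 1.5-fold. Leaving out each pig in turn gave 6361 to 6516 calls, 3364 to 3451 higher in the ileum and 2935 to 3128 higher in the liver. The share of read pairs on the 10 most abundant genes, ileum minus liver, was -13.9 percentage points, and -15.1 to -11.8 with a pig left out. Without the block for the pig, which pairs the libraries, 6439 genes were called, 3413 and 3026 by direction. Of the named genes TEK was then called higher in the liver (-1.01 on the log2 scale), the signs listed next turned, and the block changed no other call of a named gene.

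Genes with small differences changed sign with the setting, and for these the cause was not tested. Values are log2 differences, ileum minus liver. On total counts the sign turned positive for ABCG8 (0.71), ACLY (0.18), COX1 (0.27), CPS1 (0.35), GAPDH (0.027), HADHA (0.56), HADHB (0.65), HNF4A (0.049), LYVE1 (0.48), RPL32 (0.21), SCAP (0.50), TEK (0.24) and TFPI (1.00), and for the medians of clock genes (0.11), glucose metabolism (0.32), pancreas and fat tissue (0.14), proteasome (0.46), PCR reference genes (0.12) and respiratory chain (0.29). Scaled to the PCR reference genes it turned positive for ABCG8 (0.59), ACLY (0.063), COX1 (0.17), CPS1 (0.22), HADHA (0.43), HADHB (0.53), LYVE1 (0.37), RPL32 (0.094), SCAP (0.38), TEK (0.15) and TFPI (0.89), and for the medians of glucose metabolism (0.20), pancreas and fat tissue (0.048), proteasome (0.34) and respiratory chain (0.17). Both scalings raised the median of all genes, from 0.04 to 1.13 and 1.01, and the genes that turned lay within that shift. Upper-quartile factors turned TFPI (0.062), leaving out the most abundant genes ABCG5 (-0.0081) and DESeq2 MS4A1 (-0.10). The minimum in every library turned the median of the crypt stem cell and Wnt list (-0.40). Without the block for the pig, FLT1 (-0.18) and PAX5 (3.75) and the median of the crypt stem cell and Wnt list (-0.21) turned, and with the liver of pig 85 added ABCG5 (-0.022), FLT1 (-0.013), PAX5 (3.61) and TFPI (0.032) and the crypt stem cell and Wnt list (-0.23). In the PFA-fed pigs the sign was opposite for ABCG5 (-0.10), C4BPA (-0.070), CD79B (-0.65), CFD (-0.0048), CLDN4 (-0.54), FLT1 (-0.27), HOXB2 (-0.10), MS4A1 (-1.76) and MX1 (-0.57) and the median of the crypt stem cell and Wnt list (-0.11). With a pig left out, the values with a turned sign ranged as follows, the pigs whose removal turned it in brackets: ABCG5 -0.12 to 0.065 (pig 92, 100 and 110), BMAL1 -0.0073 to 0.37 (pig 80), CD79B -0.16 to 1.31 (pig 80), FLT1 -0.47 to 0.23 (pig 80), HOXB2 -0.070 to 0.22 (pig 71 and 110), MAT2A -0.070 to 0.17 (pig 92 and 110), MS4A1 -0.86 to 0.81 (pig 80), MX1 -0.21 to 0.46 (pig 71 and 100), TFPI -0.28 to 0.14 (pig 100), the crypt stem cell and Wnt list -0.39 to 0.29 (pig 71 and 92). The share of read pairs on the mitochondrial genome, ileum minus liver, was -1.68 percentage points, -2.99 to 2.40 with a pig left out, and turned with the removal of pig 80 alone. Leaving out pig 92 ended the call of ALDH18A1 (0.99) and gave one to F3 (1.02), leaving out pig 110 ended those of GAPDH (-0.91) and HNF4A (-0.99), and leaving out pig 80 ended those of HNF4A (-0.96) and TXNRD1 (0.98) and gave one, in the direction of the liver, to PAX5 (-2.80), RPL32 (-1.03) and TEK (-1.23).

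Other calls of named genes ended or began without a change of sign. On total counts those of APOB (-0.44), CCND1 (-0.36), CXCL12 (-0.997), EOMES (-0.49), GATA4 (-0.90), IGF1 (-0.48), KDR (-0.61), LCN2 (-1.59), LGR5 (-0.27), LTF (-0.65), MEIS1 (-0.28), NR1H4 (-0.17) and OTC (-0.74) ended, and ABCG5 (1.10), BMAL1 (1.30), C4BPA (1.23), CLDN2 (1.95), CLDN4 (1.4), CLOCK (1.39), F3 (1.93), FLT1 (1.10), GYS1 (1.29), HOXB2 (1.13), MAT2A (1.15), MTTP (1.55) and MX1 (1.26) were then called higher in the ileum. On the PCR reference genes the calls of APOB, CCND1, EOMES, GAPDH (-0.10), HNF4A (-0.073), IGF1, KDR, LGR5, LTF, MEIS1, NR1H4 and OTC ended, and those of BMAL1, C4BPA, CD79B (1.69), CLDN2, CLDN4, CLOCK, F3, FLT1, GYS1, HOXB2, MAT2A, MTTP and MX1 began. The test against 2-fold ended those of ACTB, ALDH18A1, COL3A1, ENO3, GAPDH, HNF4A, IDO1, KDR, LGR5, LTF, MEIS1, NR1H4 and TXNRD1. In the PFA-fed pigs ACTB (0.93), ALDH18A1 (0.98), COL3A1 (0.92), GAPDH (-0.95), HNF4A (-0.85), LGR5 (-0.63), MEIS1 (-0.97) and TXNRD1 (0.84) were not called and PAX5 (-3.23) and TEK (-1.12) were.

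Over all named genes and settings, 3484 values kept their direction and their side of the threshold, 54 lost the call, 36 gained it and 56 changed sign. Of the counts of called members by list, 707 stayed within 1.5-fold and 24 did not, 14 of them with the minimum in every library. The others were the B cell list with the liver of pig 85 added (16 members called, against 10), the interferon list on total counts and on the PCR reference genes (33 and 32, against 16), the respiratory chain on those scalings and in the test against 2-fold (11, 7 and 6, against 19), fat absorption in the test against 2-fold (7, against 11), the PCR reference genes there and in PFA pigs (1, against 3) and the red cell list with no filter (6, against 3). Because these counts join both directions, the split by direction could move where the count did not. On total counts the proteasome went from 0 called higher in the ileum and 7 higher in the liver to 8 and 0. Antioxidant genes went from 2 and 16 to 8 and 8, and clock genes from 2 and 9 to 5 and 3. Apolipoproteins went from 3 and 11 to 4 and 7. A gene with no count in a tissue may lie anywhere under 3 counts per library, and intervals of this kind cover counting error alone. The p-values measure the spread between 5 pigs of 1 pen.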

Other observations

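Some genes separated the pigs in the same way in both tissues. Among 11353 genes at 2 CPM or more in at least 1 library of each tissue, 70 divided the 5 ilea and 97 the 5 livers into a high and a low set by a gap of at least 4-fold (on CPM with 0.1 added), and 19 did so in both. For 16 of these 19 the high pigs were the same in both tissues. In 10 of the 16 the high pigs were 71 and 110, and these included the Y-linked genes KDM5D, at 14.3 and 20.7 CPM in the ileum and 7.04 and 6.55 CPM in the liver of those pigs with no read pair in the other 3, and EIF1AY. The study used piglets of both sexes, and of the 5 pigs 71 and 110 alone had read pairs of KDM5D and EIF1AY. Whether the other genes that divide the pigs in this way follow sex was not tested. In 2 genes the high pigs were the other 3, 80, 92 and 100. One of these, ENSSSCG00000036841, was at 0, 32.2, 33.7, 33.6 and 0.0363 CPM in the ileum and 0, 83.8, 30.0, 39.0 and 0 CPM in the liver.

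The remaining 4 genes followed other sets of pigs. ENSSSCG00000000207 was highest in pig 100 in both tissues, at 8.91, 14.3, 16.3, 89.2 and 10.4 CPM in the ileum and 9.57, 10.4, 17.8, 185 and 12.4 CPM in the liver. ENSSSCG00000034871 was at 0, 0, 0.0362, 6.92 and 5.84 CPM in the ileum and 0, 0, 0.0395, 7.18 and 7.82 CPM in the liver, present in pigs 100 and 110 and nearly absent from the other 3. These genes carry no symbol in the tables used. In 1 gene, ENSSSCG00000015294, the sets were opposite, with pig 80 the highest ileum (34.8 against 0.398 to 0.914 CPM) and the lowest liver (3.43 against 19.4 to 58.7 CPM).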
